A study of Homo sapiens with 12 samples.

Results

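Collagen chain genes were taken as every row of the deposited table whose symbol is COL, a number, A and a number. This gave 40 of the 16383 genes listed, and 29 of them had a mean of at least 10 normalized counts over the 12 libraries and are described in detail. RNA came from IMR90 human lung fibroblasts, wild type in all groups, with 3 libraries per group. Proliferating cells were left untreated. The other 3 groups had been irradiated with 20 Gy over 10 min, were called senescent in the labels, and received DMSO (the solvent control), 2 µM palbociclib (an inhibitor of the cell-cycle kinases CDK4 and CDK6) or 2 µM ruxolitinib (an inhibitor of the Janus kinases JAK1 and JAK2) on days 4, 6, 8 and 10, with harvest on day 11. Proliferating cells got neither radiation nor solvent, so the effects of radiation, time and solvent cannot be told apart in that comparison. The labels do not say that the 3 libraries of a group came from separate cultures, so p-values measure the spread between these samples, which may be technical.

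Collagens are built from 3 chains that wind into a triple helix, and each chain is the product of its own gene. Fibrillar collagens, of which types I, III and V are the main ones made by fibroblasts, form the tensile fibres of the lung interstitium. Type IV collagens form the sheet of the basement membrane. FACIT collagens sit on the surface of fibrils, and the remaining members include the beaded filaments of type VI, the anchoring fibrils of type VII, the short-chain type VIII, the multiplexins XV and XVIII, and chains that span the membrane. Chains are hydroxylated and folded in the endoplasmic reticulum, exported, trimmed of their propeptides and crosslinked outside the cell.

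Of the 40 genes, the 29 described in detail were 8 of 10 fibrillar, 5 of 6 basement membrane, 4 of 9 FACIT and 12 of 15 other genes. The other 11, with a mean under 10, were COL2A1, COL11A2, COL4A3, COL9A1, COL9A3, COL19A1, COL20A1, COL21A1, COL6A6, COL23A1 and COL26A1, and they were not tested. Picked after their values were seen, COL2A1, the cartilage fibril chain, had 1.04 to 1.9 normalized counts in proliferating cells and 9.9 to 15 with DMSO. COL20A1 had 0 to 0.952 in proliferating cells, 4.95 to 7.10 with DMSO and 9.26 to 16.2 with ruxolitinib, and COL21A1 had 10.7 to 13.9 with DMSO and 3.28 to 4.43 with palbociclib. The 29 genes had longer and more GC-rich transcripts than the other genes tested, with a median length of 6207 bases against 3412 and a median GC content of 55.2% against 48.2% over all 11242 genes tested.

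Reads over the listed genes ranged from 14106799 to 21762412 per library, and the spread between libraries set the precision of all but the lowest members. All 8 fibroblast markers looked for, VIM and PDGFRA among them, were detected in every group. Their summed level was 155760 to 157167 normalized counts in the proliferating group, 106337 to 110671 in the DMSO group, 140313 to 157762 in the palbociclib group and 107875 to 113307 in the ruxolitinib group, so it was lower after irradiation and higher with palbociclib as many collagen genes were. VIM, the main part of that sum, fell by 0.66 on the log2 scale after irradiation and rose by 0.32 with palbociclib, while PDGFRA fell by 0.64 and by a further 0.30 (limma). The markers did not all move together. THY1 and DCN were called higher after irradiation (0.18 and 0.16), while PDGFRB, LUM, FAP and S100A4 were called lower. With palbociclib THY1, DCN, PDGFRB and LUM were called higher (0.51, 1.02, 0.60 and 0.55), as VIM was. FAP and S100A4 were not called, and PDGFRA was the only marker called lower. The part of these markers in the collagen results was not tested. Libraries A126 (proliferating) and A120 (palbociclib) stood apart from their group, with a chi-square per degree of freedom of 11.5 to 16.4 and 13.0 to 23.9 against their mates, where other pairs gave 1.94 to 6.18. A120 was the lowest of its group in 20 of the 29 members, and A126 in 14. Results that rest on these libraries are given with and without them. They were picked after seeing the data, and leaving out the lowest library of a group raises the mean of that group. The p-values without them are therefore only descriptive.

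Type IV genes lie head to head in pairs, and part of the bases between the starts is printed for 2 pairs. They are shown because both members of the first pair fell after irradiation and rose with palbociclib, while in the second both rose after irradiation and COL4A6, but not COL4A5, was called lower with palbociclib. The start sites here are RefSeq's, while the gene spans given below are GENCODE's. In GENCODE the COL4A2 span begins at 110305812, inside the span of COL4A1, so bases between the starts are those of RefSeq. COL4A1 and COL4A2, which encode the chains of the common basement membrane network, start at positions 110307157 and 110307284 of chromosome 13. COL4A6 and COL4A5, chains of a network found in specialised basement membranes, start at positions 108439458 and 108439838 of chromosome X. The sequences are plus-strand stretches of RefSeq's GRCh38.p14 from between the start sites, chr13:110307158-110307257 and chrX:108439498-108439797, and capitals mark CCAAT on either strand (ATTGG on the minus strand) and GGGCGG.
COL4A1 and COL4A2: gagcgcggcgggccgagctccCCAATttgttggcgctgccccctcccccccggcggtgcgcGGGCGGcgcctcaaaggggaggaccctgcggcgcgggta
COL4A6 and COL4A5: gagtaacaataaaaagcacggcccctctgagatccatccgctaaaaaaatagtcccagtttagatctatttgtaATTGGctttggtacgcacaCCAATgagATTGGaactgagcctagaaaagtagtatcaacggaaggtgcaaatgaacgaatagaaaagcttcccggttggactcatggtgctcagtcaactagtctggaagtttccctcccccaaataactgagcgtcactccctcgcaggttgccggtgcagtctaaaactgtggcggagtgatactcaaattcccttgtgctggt
The stretch between COL4A1 and COL4A2 held 1 CCAAT and 1 GGGCGG, and that between COL4A6 and COL4A5 held 3 CCAAT and no GGGCGG. Over 35116 promoter windows of 250 bases in the RefSeq table, 32.0% held at least 1 CCAAT on either strand and 42.6% at least 1 GGGCGG. Of the 29 members, 22 were in that table. CCAAT was found in 8 of these 22 and GGGCGG in 15. A member counted if any of its windows held a match, and some have more than 1 window, so these counts are not on the same footing as the shares per window. The printed stretches are 100 and 300 bases long and lie between 2 starts, so their counts cannot be set against the shares per window either. These matches describe the letters in the stretches and windows only.

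Collagen transcripts were among the most abundant in these cells, and their share of the listed reads was lowest in the senescent DMSO cells. The 40 genes together took 6.33% ± 0.0201 (SD, n = 3) of the listed reads of proliferating cells, 3.26% ± 0.0612 in the DMSO group, 4.25% ± 0.118 in the palbociclib group and 3.85% ± 0.0116 in the ruxolitinib group. The 4 groups did not overlap. In bulk samples, fewer cells of a kind and less RNA per cell cannot be told apart. COL1A1, the alpha 1 chain of type I collagen, ranked 1 or 2 among all listed genes in every library, and COL1A2, its partner chain, ranked 2 to 4. Fibrillar genes gave 3.65% to 3.92% of the reads of proliferating libraries, 1.97% to 2.05% under DMSO, 2.84% to 2.94% under palbociclib and 2.57% to 2.61% under ruxolitinib. The share of basement membrane genes was 0.242% to 0.257% with DMSO and 0.331% to 0.393% with palbociclib, while that of FACIT genes overlapped between these groups.

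**Figure D1:**
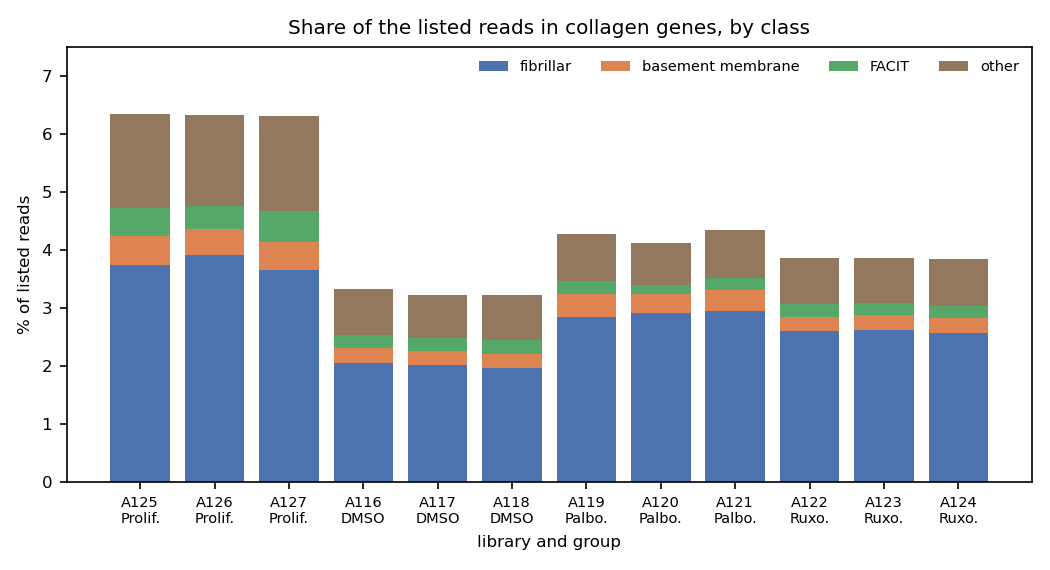
Share of the listed reads that fell in collagen genes, in percent, for each of the 12 libraries, stacked by class. The 3 DMSO libraries have the lowest totals, and fibrillar genes make up most of every bar.

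After irradiation with DMSO, most collagen genes were lower than in proliferating cells and a few low or minor chains were higher. Of the 29 genes, 20 fell and 5 rose at a limma adjusted p under 0.05, where 39.3% of all tested genes fell and 33.0% rose. Their median log2 fold change was -0.94, beside -0.05 over all genes tested. Values without overlap between the 2 groups were found for 25 of the 29, beside 75.1% of all genes. Fibrillar genes gave 7 lower and 1 higher of 8, basement membrane genes 2 lower and 2 higher of 5, FACIT genes 3 lower and 1 higher of 4, and the others 8 lower and 1 higher of 12. Their medians were -0.97, 0.56, -1.22 and -0.73 in that order, and that of the 5 basement membrane genes was -0.62 with quantile normalization.

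With palbociclib, 16 of the 29 genes rose against DMSO and 4 fell, where 26.0% of all tested genes rose and 22.3% fell. The median was 0.29, beside 0.02 over all genes, and 20 of the 29 had values without overlap, beside 54.8% of all genes. Fibrillar genes gave 6 higher and 0 lower of 8, basement membrane genes 2 higher and 1 lower of 5, FACIT genes 2 higher and 1 lower of 4, and the others 6 higher and 2 lower of 12. Their medians were 0.66, -0.17, 0.10 and 0.22, and of these the basement membrane median was 0.35 with quantile normalization, while the FACIT and other medians were -0.13 and -0.01 at the same total. The split depended on the scaling. Summed normalized counts were 16554893 ± 192963 (SD, n = 3) with DMSO and 19369896 ± 68982 with palbociclib, and scaling all libraries to the same total moved the median gene by -0.23 and gave 12 higher and 9 lower among the members, beside 8.36% higher and 46.0% lower of all tested genes. Quantile normalization gave 12 and 9 too, beside 24.3% and 20.1%. Against ruxolitinib, 13 rose and 6 fell with palbociclib, where 22.8% and 17.6% of all genes did, and the same total gave 9 and 7, beside 7.53% and 40.3%, while quantile normalization gave 11 and 8, beside 17.6% and 17.3%. Here 21 of the 29 had values without overlap, beside 51.8% of all genes.

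Ruxolitinib moved few collagen genes. COL1A1, COL1A2, COL3A1 and COL18A1 rose against DMSO and 0 of the 29 fell in the limma fit, where 1.10% of all tested genes rose and 3.42% fell. At an unadjusted p under 0.05 the counts were 10 higher and 0 lower, and edgeR and DESeq2 on the recovered reads each gave 5 higher and 0 lower. A fit of the 2 groups alone gave 9 higher and 1 lower. The share of all tested genes is not given at these other settings, so nothing is read from these counts. The call for COL1A2 was lost with quantile normalization, where its log2 fold change was 0.00. The median was 0.04, beside -0.00 over all genes. Values without overlap between the 2 groups were found for 12 of the 29 members, beside 31.9% of all genes.

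Palbociclib left most members below proliferating cells: 18 were lower and 4 higher, where 38.6% and 35.2% of all tested genes were, and 22 had values without overlap, beside 70.9% of all genes. Of the 14 genes that fell after irradiation and were higher with palbociclib than with DMSO, 11 were still lower than in proliferating cells, 2 (COL1A2 and COL5A1) were not called and 1 (COL8A1) was higher. Of all tested genes, 1228 (10.9%) fell after irradiation and were higher with palbociclib, and of these 593 (48.3%) were lower than in proliferating cells, 499 (40.6%) were not called and 136 (11.1%) were higher. These comparisons share the DMSO or the proliferating libraries, so nothing is read from the joint counts and each gene's own values are given below.

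**Figure D2:**
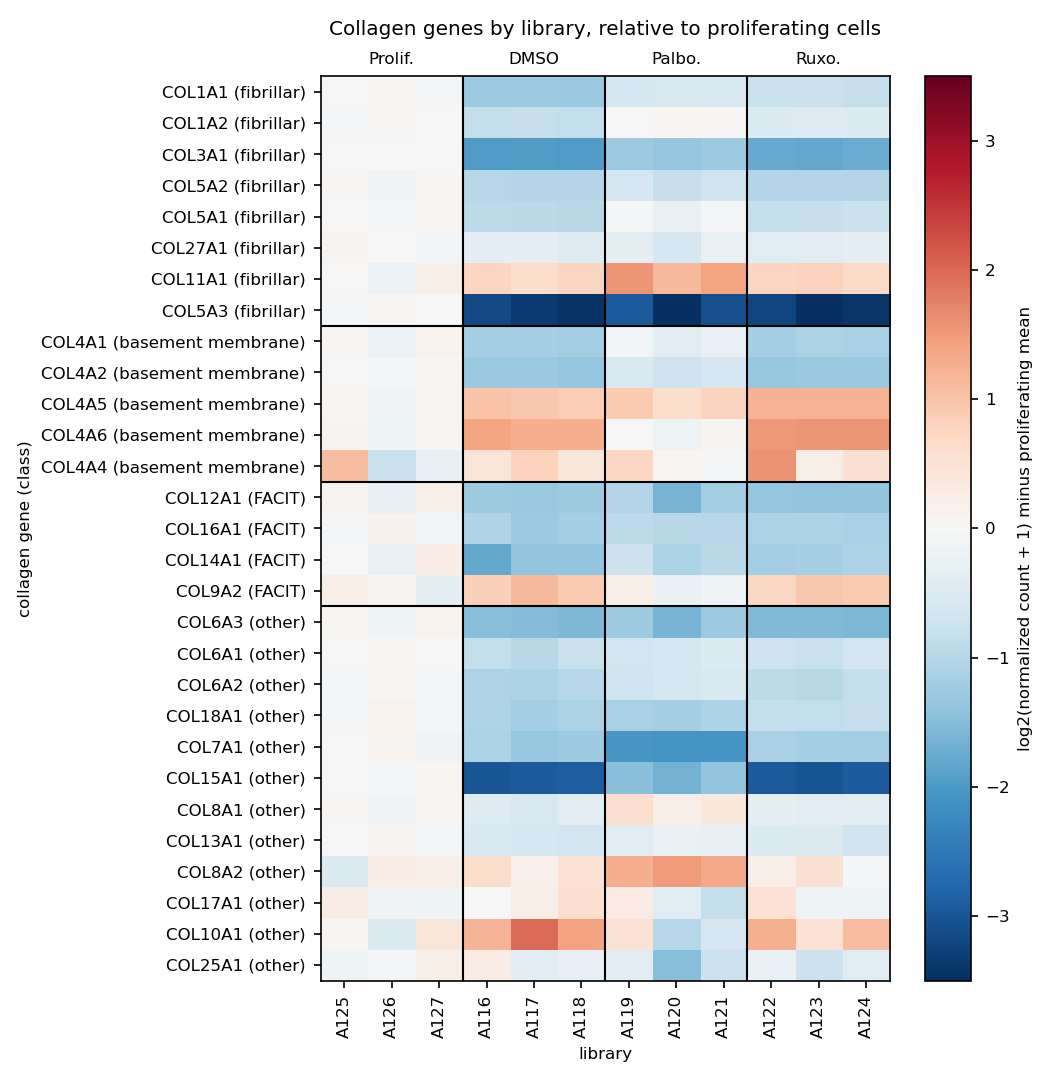
Level of each of the 29 collagen genes in each library as log2(normalized count + 1) minus the mean of the proliferating libraries, with genes in rows by class and libraries in columns by group. Most rows are blue (lower) in the DMSO columns and paler in the palbociclib columns. COL10A1, COL4A6, COL9A2, COL4A5 and COL11A1 are among the red (higher) rows in DMSO.

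The type I chains carried the largest counts. COL1A1 (chr17:50184101-50201632, minus strand) had normalized counts of 397572, 414584 and 391817 in proliferating cells, 166302, 167463 and 163418 with DMSO, 260817, 270148 and 274606 with palbociclib and 232372, 232374 and 229002 with ruxolitinib. The 4 groups did not overlap, and DMSO was lowest. The log2 fold change was -1.28 ± 0.06 (SE) after irradiation (limma adjusted p = 1.87e-11), 0.70 ± 0.06 with palbociclib against DMSO (limma adjusted p = 1.36e-07) and 0.48 ± 0.06 with ruxolitinib against DMSO (limma adjusted p = 6.33e-05). Palbociclib and ruxolitinib differed from each other by 0.22 ± 0.06 (limma adjusted p = 0.00761), a call that was lost under all 3 other scalings (0.01 at the same total, 0.14 at the same upper quartile, -0.11 with quantile normalization) and without the filter on low counts.

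COL1A2 (chr7:94394895-94431227, plus strand) was near its proliferating level with palbociclib. Its normalized counts were 221257, 234286 and 223410 in proliferating cells, 127773, 128618 and 124221 with DMSO, 229957, 236606 and 234411 with palbociclib and 160974, 165190 and 162933 with ruxolitinib. The palbociclib and proliferating libraries overlapped, and their log2 fold change was 0.05, with a 95% interval of -0.07 to 0.16. It was called higher than in proliferating cells in 3 of the 25 other settings, namely the same upper quartile (0.14), quantile normalization (0.21) and DESeq2 (0.09). It fell by 0.83 after irradiation and rose by 0.88 with palbociclib (limma adjusted p = 1.67e-09 and 5.58e-09). Quantile normalization, which forces the highest ranks of all libraries to the same values, gave 0.13 and 0.08 with no call.

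Because the chains of one trimer come from separate genes, ratios between chains were computed per kilobase of transcript. The COL1A1 to COL1A2 ratio was 1.54, 1.52 and 1.504 in proliferating cells, 1.12, 1.12 and 1.13 with DMSO, 0.973, 0.979 and 1.00 with palbociclib and 1.24, 1.21 and 1.21 with ruxolitinib. The 4 groups did not overlap, and palbociclib, which raised both chains, gave the lowest ratio. The collagen I heterotrimer holds more alpha 1 than alpha 2 chains. Ratios do not change when a library is scaled by 1 factor. Quantile normalization can change them, and they were not recomputed with it, so the order of the groups is given for the deposited scaling only. With 3 libraries against 3, the exact permutation test used for the ratios cannot give a two-sided p below 0.1. Over 9 pairs of chains and 3 comparisons, 27 tests in all, groups did not overlap in 8 of 9 pairs after irradiation, 6 with palbociclib and 3 with ruxolitinib, each at that smallest p of 0.1. Single genes did not overlap in 75.1%, 54.8% and 31.9% of all tested genes in these comparisons, and no share was computed for ratios of other gene pairs. COL1A1, COL5A1 and COL6A1 each stand in more than 1 pair.

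COL3A1 (chr2:188974373-189012746, plus strand), the chain of the thinner fibres that accompany type I, fell further than the type I chains. Its normalized counts were 49865, 50657 and 51059 in proliferating cells, 12848, 13043 and 12724 with DMSO, 20841, 19694 and 20763 with palbociclib and 14925, 14576 and 15066 with ruxolitinib. The groups did not overlap, and all irradiated groups stayed far below proliferating cells. The log2 fold change was -1.97 ± 0.04 after irradiation (limma adjusted p = 1.31e-14), 0.67 ± 0.04 with palbociclib (1.07e-08) and 0.21 ± 0.04 with ruxolitinib (0.012), and the last call was lost when A116, A118, A122 or A124 was left out, with a log2 fold change of 0.20 or 0.21, and with quantile normalization (0.06). Per kilobase, COL3A1 relative to COL1A1 was 0.136 ± 0.00441 (SD, n = 3) in the proliferating group, 0.0837 ± 0.000384 in the DMSO group, 0.0820 ± 0.00381 in the palbociclib group and 0.0692 ± 0.00165 in the ruxolitinib group.

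The type V genes, whose products sit inside type I fibrils and help set their diameter, went 3 ways. COL5A1 counts were 18934, 18148 and 19528 in proliferating cells, 10019, 9756 and 9693 with DMSO, 18127, 15737 and 18084 with palbociclib and 10630, 10871 and 10967 with ruxolitinib. It fell by 0.94 after irradiation and rose by 0.81 with palbociclib (limma adjusted p = 4.72e-10 and 1.68e-08), to 91.8% of the proliferating mean. Its palbociclib and proliferating libraries did not overlap, with a log2 fold change of -0.13 (0.0517) that was called lower in 7 of the 25 other settings. COL5A2 fell by a similar 1.01 but rose by 0.31 with palbociclib (0.000569), to 61.7% of the proliferating mean, and that rise was not called at the same total (0.08). The COL5A1 to COL5A2 ratio per kilobase was 0.508 ± 0.00388 (SD, n = 3) with DMSO and 0.720 ± 0.0337 with palbociclib, with no overlap.

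COL5A3, the third type V chain, showed the deepest fall of the 29 genes. Its counts were 1094, 1163 and 1121 in proliferating cells, 125.7, 109 and 103 with DMSO, 147, 95.2 and 131 with palbociclib and 120, 96.3 and 106 with ruxolitinib. The irradiated groups overlapped with each other and stood 10.0-fold below proliferating cells with DMSO, at a log2 fold change of -3.32 ± 0.14 (limma adjusted p = 8.53e-12). The change with palbociclib was 0.13 ± 0.14 with all libraries (0.469). It was 0.31 without A120 and A126, left out after seeing the data (0.0383). Of the exon bases of COL5A3, 4.0% are shared with a non-coding gene on the opposite strand.

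The other 2 fibrillar genes were less abundant. COL11A1, a cartilage-type chain that also joins type V, was the gene that rose in both steps: its counts were 283, 246 and 325 in proliferating cells, 478, 431 and 473 with DMSO, 822, 622 and 741 with palbociclib and 478, 495 and 447 with ruxolitinib. The log2 fold changes were 0.70 after irradiation and 0.65 with palbociclib (limma adjusted p = 2.69e-05 and 0.00016), and palbociclib cells held 256% of the proliferating mean. COL27A1 fell by 0.37 after irradiation (0.000618) and stayed between 678 and 845 in all irradiated libraries. That fall was not called at the same total.

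**Figure D3:**
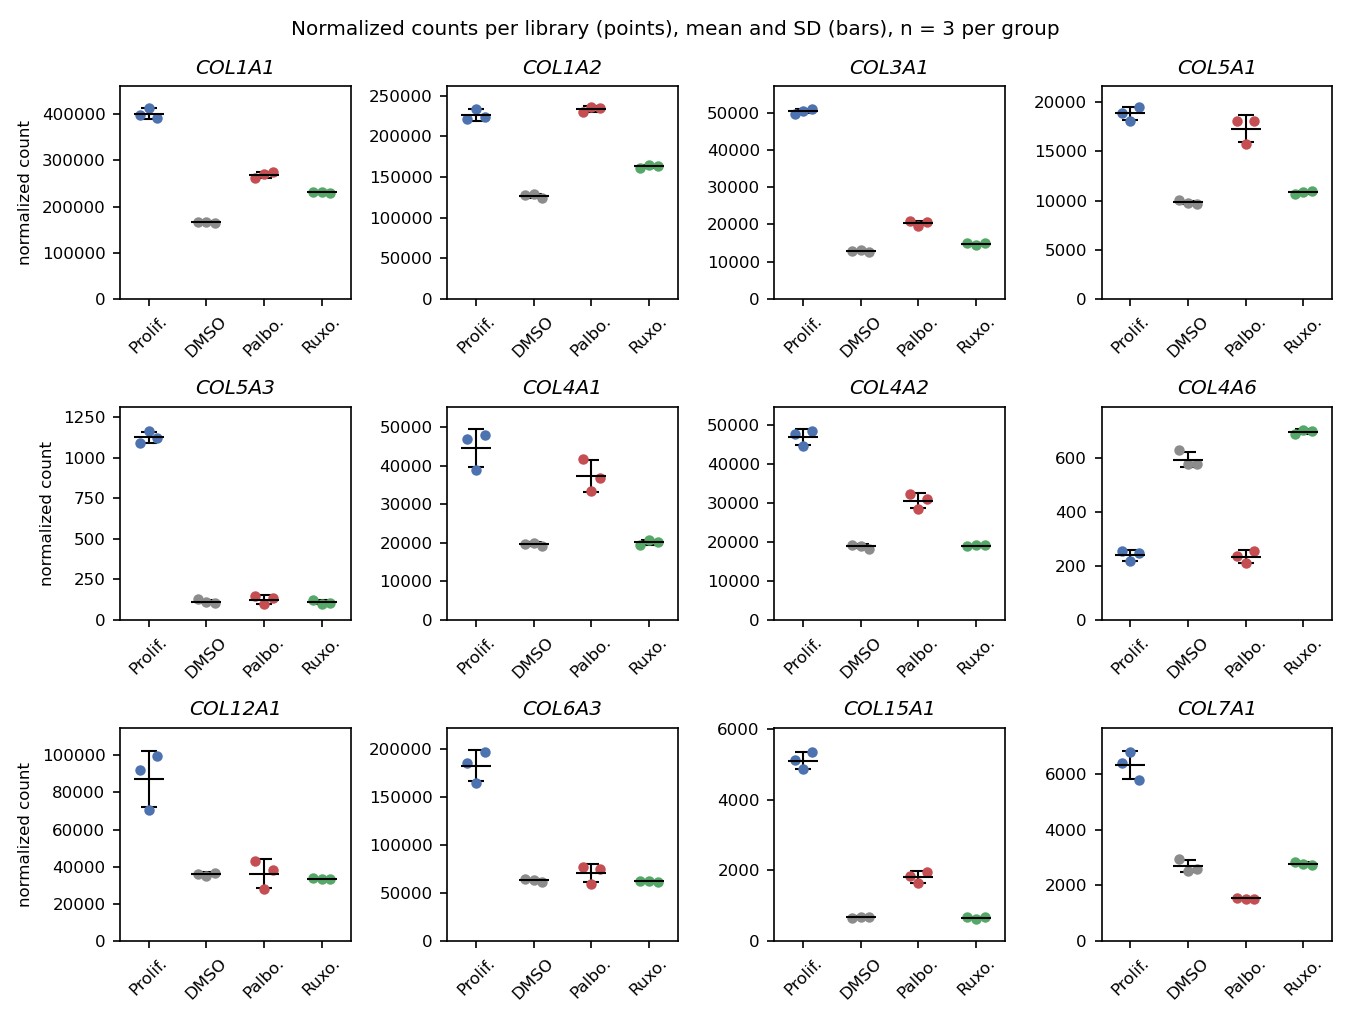
Normalized counts of 12 collagen genes in each library (points) with the mean and SD of each group (bars), n = 3, on linear axes that start at 0. COL1A2 and COL5A1 with palbociclib lie near the proliferating libraries, COL5A3 and COL6A3 stay low in all irradiated groups, and COL4A6 is high with DMSO and ruxolitinib.

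Among the basement membrane genes, the first head-to-head pair was lower after irradiation and higher with palbociclib. COL4A1 (chr13:110148963-110307157, minus strand) had counts of 46979, 38843 and 48089 in proliferating cells, 19750, 20043 and 19194 with DMSO, 41663, 33564 and 36852 with palbociclib and 19458, 20760 and 20090 with ruxolitinib. COL4A2 (chr13:110305812-110513209, plus strand) had 47654, 44579 and 48508, then 19214, 18938 and 18220, then 32241, 28437 and 30954, and then 18833, 19088 and 19048 in the same order of groups. Both fell after irradiation and both rose with palbociclib, while the ruxolitinib and DMSO libraries overlapped for both.

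The log2 fold changes of COL4A1 and COL4A2 were -1.18 ± 0.08 and -1.32 ± 0.05 after irradiation (limma adjusted p = 3.14e-09 and 6.66e-12) and 0.92 ± 0.08 and 0.70 ± 0.05 with palbociclib (3.01e-07 and 7.08e-08). With ruxolitinib they were 0.03 and 0.02, with 95% intervals of -0.14 to 0.21 and -0.10 to 0.13. The COL4A1 to COL4A2 ratio per kilobase was 0.936 ± 0.0668 (SD, n = 3) in the proliferating group, 1.03 ± 0.0161 in the DMSO group and 1.20 ± 0.0610 in the palbociclib group, and the palbociclib libraries did not overlap with the others.

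COL4A5 and COL4A6 rose after irradiation, and COL4A6 fell with palbociclib. COL4A5 (chrX:108439838-108697545, plus strand) had counts of 1263, 1108 and 1281 in proliferating cells, 2424, 2321 and 2239 with DMSO, 2312, 1845 and 2080 with palbociclib and 2799, 2810 and 2803 with ruxolitinib. COL4A6 (chrX:108155607-108439497, minus strand) had 253, 216 and 248, then 627, 577 and 576, then 237, 210 and 255, and then 687, 702 and 699. COL4A6 with palbociclib overlapped with proliferating cells, whereas COL4A5 with palbociclib stayed above it.

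COL4A6 rose by 1.31 ± 0.09 after irradiation and fell by 1.34 ± 0.09 with palbociclib (limma adjusted p = 1.49e-09 and 7.04e-09). COL4A5 rose by 0.94 ± 0.07 (1.60e-08) and its log2 fold change with palbociclib was -0.17 ± 0.07 (0.0748), which passed the test in 7 of the 25 other settings. With ruxolitinib COL4A5 was 0.27 above DMSO (0.0542) with no overlap, and it was called higher in 10 of the 25 other settings, edgeR (adjusted p = 0.0363) and DESeq2 (0.0152) among them. COL4A6 was 0.23 above DMSO (0.171) and was called higher in 3 settings. The COL4A5 to COL4A6 ratio per kilobase was 5.11 to 5.30 in the proliferating group, 3.96 to 4.12 in the DMSO group, 8.35 to 9.99 in the palbociclib group and 4.10 to 4.17 in the ruxolitinib group. COL4A4, a chain of kidney-type basement membranes, had 4.44 to 27.0 counts over all libraries and passed no test.

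**Figure D4:**
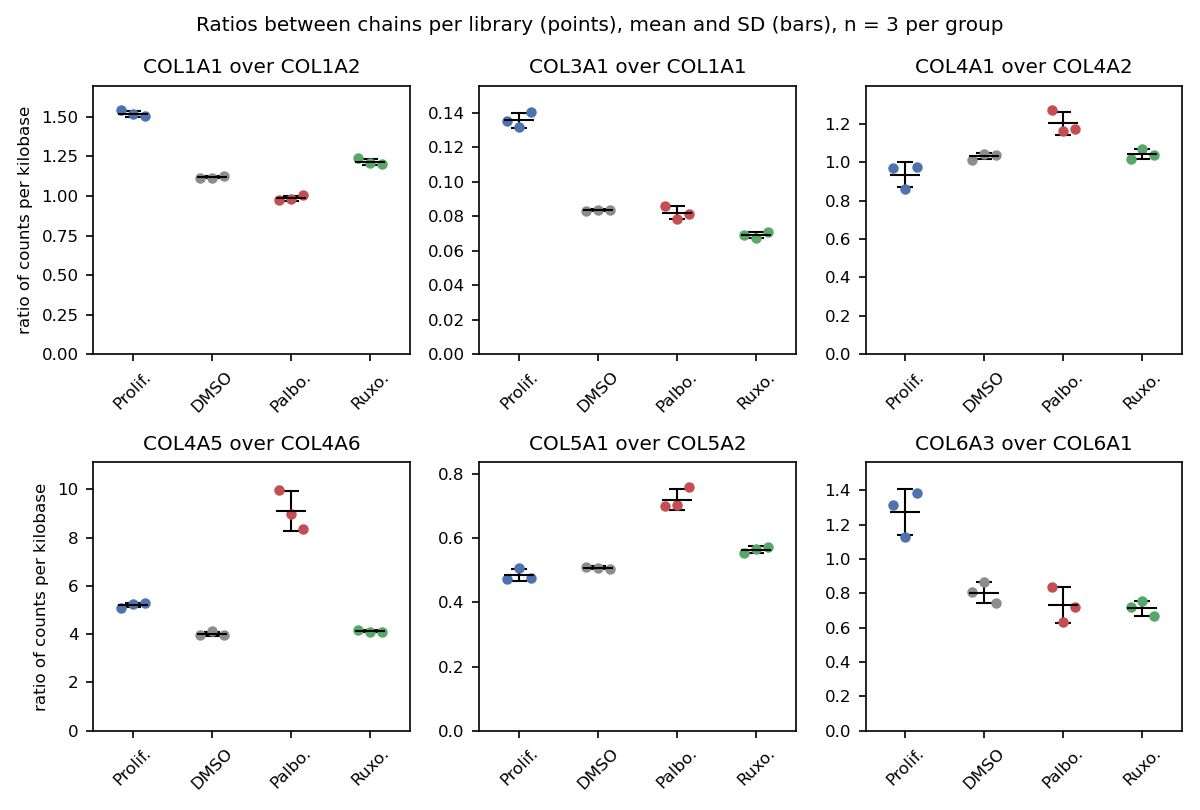
Ratio of normalized counts per kilobase of transcript between pairs of collagen chains in each library (points), with the mean and SD of each group (bars), n = 3. The COL1A1 to COL1A2 ratio is highest in proliferating cells and lowest with palbociclib, and the COL4A5 to COL4A6 ratio is highest with palbociclib.

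Of the 4 FACIT genes, 3 fell and 1 rose after irradiation, and 2 rose and 1 fell with palbociclib. COL12A1 (chr6:75084326-75206267, minus strand), a long chain found on fibrils under mechanical load, had counts of 91992, 70466 and 99687 in proliferating cells, 36172, 34955 and 36720 with DMSO, 42860, 27800 and 38104 with palbociclib and 33610, 33190 and 33053 with ruxolitinib. Its palbociclib libraries lay on both sides of DMSO, with A120 lowest. It fell by 1.27 ± 0.13 after irradiation (limma adjusted p = 3.46e-07). With palbociclib the log2 fold change was -0.01 ± 0.13 with all libraries (0.954). It was 0.17 without A120 and A126, left out after seeing the data (0.00532). With quantile normalization it was called lower (-0.56, 0.000758).

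COL16A1 fell by 1.17 (limma adjusted p = 4.58e-10) and rose by 0.21 with palbociclib (0.0205), but the rise was lost without A117 (0.16) or A118 (0.20), in edgeR (0.18) and under the 3 other scalings. COL14A1, a FACIT of mature fibrils, had counts of 244, 200 and 288 in proliferating cells, 69.3, 92.3 and 92.5 with DMSO, 143, 112 and 125 with palbociclib and 103, 106 and 112 with ruxolitinib. It fell by 1.51 and rose by 0.58 with palbociclib (2.17e-07 and 0.00526). COL9A2, a cartilage chain at 25 to 70 reads per library, rose by 0.96 and fell by 1.02 with palbociclib (0.000328 and 0.000495), from a mean of 64.4 with DMSO to 31.4.

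Type VI collagen forms beaded filaments around cells from an alpha 1, an alpha 2 and a larger alpha 3 chain. COL6A3 (chr2:237324003-237414328, minus strand) had counts of 185321, 164921 and 196637 in proliferating cells, 64258, 63477 and 61671 with DMSO, 77299, 59363 and 74609 with palbociclib and 62168, 62650 and 61169 with ruxolitinib. A120 was again below both of its mates and below DMSO. COL6A3 fell by 1.53 ± 0.09 after irradiation (limma adjusted p = 2.92e-10), and with palbociclib it was 0.15 ± 0.09 with all libraries (0.172). It was 0.27 without A120 and A126, left out after seeing the data (1.74e-05). With quantile normalization it was called lower (-0.27, 0.0224).

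The shorter type VI chains fell less and rose with palbociclib. COL6A1 fell by 0.87 and rose by 0.29 (limma adjusted p = 4.47e-09 and 0.00118), and COL6A2 fell by 1.06 and rose by 0.45 (2.59e-10 and 2.12e-05). The rise of COL6A1 was not called at the same total (0.07) and was -0.21 with quantile normalization, and that of COL6A2 was 0.03 with quantile normalization. The COL6A3 to COL6A1 ratio per kilobase was 1.13 to 1.38 in proliferating cells and 0.741 to 0.866 with DMSO, with overlap between DMSO and both inhibitors.

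COL15A1 (chr9:98943179-99070792, plus strand), a multiplexin of the zone between basement membrane and interstitium, had the largest rise with palbociclib. Its counts were 5116, 4871 and 5351 in proliferating cells, 636, 684 and 687 with DMSO, 1836, 1632 and 1962 with palbociclib and 667, 625 and 678 with ruxolitinib. The palbociclib libraries stood clear of all other groups. The fall was -2.93 ± 0.07, or 7.64-fold (limma adjusted p = 1.71e-14), and the rise 1.43 ± 0.07, or 2.70-fold (2.67e-10), to 35.4% of the proliferating mean. With ruxolitinib the difference was -0.03, with a 95% interval of -0.17 to 0.12.

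COL18A1, the other multiplexin and the source of endostatin, rose with ruxolitinib and did not pass the test with palbociclib in the deposited scaling. With palbociclib it was called lower at the same total (-0.23, limma adjusted p = 0.00351) and with quantile normalization (-0.17, 0.0343). Its counts were 5740, 6481 and 5782 in proliferating cells, 2825, 2621 and 2777 with DMSO, 2728, 2652 and 2806 with palbociclib and 3341, 3316 and 3442 with ruxolitinib. It fell by 1.13 after irradiation, rose by 0.30 with ruxolitinib (limma adjusted p = 0.00394) and was lower with palbociclib than with ruxolitinib by a log2 fold change of -0.30 (0.000419). Of its exon bases, 18.5% are shared with SLC19A1 on the opposite strand. Whether counting used the strand is not given in the sources used here, so reads from the 2 genes cannot be told apart there.

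COL7A1 (chr3:48564073-48595329, minus strand), the anchoring fibril chain, was the gene that fell in both steps. Its counts were 6387, 6795 and 5794 in proliferating cells, 2931, 2527 and 2599 with DMSO, 1549, 1508 and 1515 with palbociclib and 2848, 2777 and 2719 with ruxolitinib. It fell by 1.24 ± 0.06 after irradiation and by a further 0.81 ± 0.06 with palbociclib (limma adjusted p = 9.65e-11 and 7.83e-08), to 24.1% of the proliferating mean.

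Both type VIII chains, found in vessel walls and the cornea, rose with palbociclib. COL8A1 had counts of 1881, 1687 and 1939 in proliferating cells, 1335, 1244 and 1385 with DMSO, 2702, 2129 and 2381 with palbociclib and 1451, 1396 and 1421 with ruxolitinib. It fell by 0.47 and rose by 0.86 (limma adjusted p = 5.30e-05 and 3.92e-07), to 131% of the proliferating mean. COL8A2, at 14.5 to 60.2 counts, rose by 0.93 with palbociclib (0.00607). COL13A1, a chain that spans the membrane, fell by 0.60 and rose by 0.30 (1.50e-06 and 0.00306), and the rise was not called at the same total.

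The remaining genes were near the filter. COL10A1, the chain of hypertrophic cartilage, had 6.65 to 13.3 counts in the proliferating group, 23.8 to 41.4 in the DMSO group, 4.38 to 14.4 in the palbociclib group and 14.4 to 24.7 in the ruxolitinib group. It rose by 1.53 ± 0.40 after irradiation and fell by 1.89 ± 0.40 with palbociclib (limma adjusted p = 0.00291 and 0.00127), and the rise was not called with quantile normalization (0.63). COL17A1, an epithelial chain, and COL25A1, a chain of neurons, had 5.47 to 27.8 counts and passed neither test. COL25A1 was lower with palbociclib than in proliferating cells by a log2 fold change of -0.87 (0.0308), a call lost without A126, A127 or A120, with values of -0.90, -0.78 and -0.56. That call was also lost in DESeq2 (-0.83), in a fit of the 2 groups alone (-0.87), with GC and length trends removed (-0.62) and without both A120 and A126 (-0.59).

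**Figure D5:**
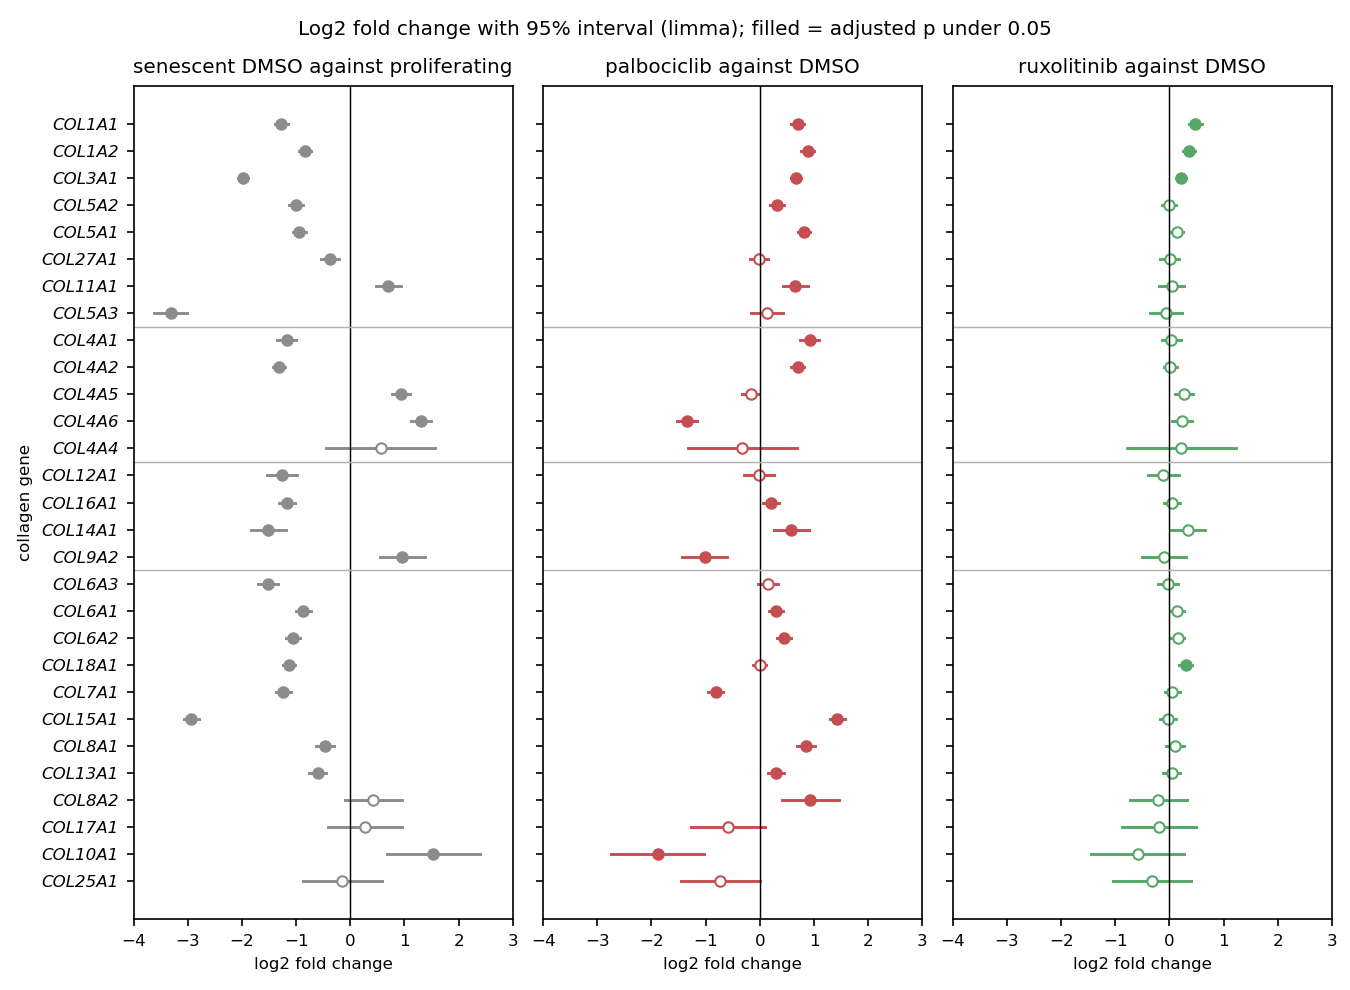
Log2 fold change of the 29 collagen genes with its 95% interval from limma for 3 comparisons, with genes ordered by class and filled points marking an adjusted p under 0.05. Most points lie left of 0 after irradiation, 16 filled points lie right of 0 with palbociclib, and 4 do so with ruxolitinib.

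Genes that act on collagen chains were described from 7 lists of 65 genes, of which 54 were tested. After irradiation 18 of the 54 rose and 28 fell, where 33.0% of all tested genes rose and 39.3% fell. With palbociclib 36 rose and 7 fell against DMSO, where 26.0% and 22.3% of all tested genes did. With ruxolitinib 2 rose and 2 fell, where 1.10% and 3.42% did. At the same total the palbociclib split was 18 higher and 12 lower, beside 8.36% and 46.0% of all tested genes. These shares are also the background for the counts of each list below. Chain modification and folding gave 16 higher and 0 lower of 18 with palbociclib, with a median of 0.27, and at the same total 5 higher and 1 lower, with a median of 0.05. Its examples were PLOD2, which hydroxylates the lysines of telopeptides (0.67 ± 0.06, limma adjusted p = 2.4e-07), P3H4, a partner of lysyl hydroxylase (0.60 ± 0.08), and SERPINH1, the collagen chaperone HSP47, which fell by 1.72 after irradiation and rose by 0.33.

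Crosslinking enzymes gave 4 higher and 1 lower of 5 with palbociclib, in the deposited scaling and at the same total. LOX, the lysyl oxidase, rose by 0.51 after irradiation and by 1.10 with palbociclib (limma adjusted p = 3.0e-06 and 2.5e-09), from a mean of 31241 with DMSO to 67201. LOXL2 rose by 0.71 with palbociclib and by 0.19 with ruxolitinib, and LOXL3 fell by 0.42 with palbociclib. Fibril partners gave 5 higher and 0 lower of 7 under both scalings. DCN, the proteoglycan decorin, rose by 1.02, and BGN, biglycan, fell by 2.00 after irradiation and rose by 0.94.

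Propeptide removal gave 4 lower and 1 higher of 5 after irradiation. PCOLCE, the enhancer of the C-proteinase, fell by 2.78 ± 0.09 (limma adjusted p = 2.8e-13) and had a log2 fold change of -0.04 with palbociclib (0.70). ADAMTS2, an N-proteinase, fell by 0.92 and rose by 0.64. TLL2 had no read in proliferating cells and 13.9 to 18.9 counts with DMSO, at least 5.14-fold higher against a floor of 3 reads per library. Procollagen export gave 5 higher and 0 lower of 8 with palbociclib, and 1 higher and 1 lower at the same total.

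Degradation gave 1 higher and 2 lower of 4 tested genes with palbociclib. MMP1, the interstitial collagenase, rose by 1.12 after irradiation and fell by 2.37 with palbociclib (limma adjusted p = 5.3e-10 and 1.5e-12), from a mean of 6556 with DMSO to 1276. CTSK, a lysosomal collagenase, fell by 0.72, while MMP14 rose by 0.19, a rise that was -0.04 at the same total. Receptors gave 4 higher and 2 lower of 7: ITGA11, the integrin chain of fibroblasts for fibrillar collagen, rose by 0.96 and ITGA2 fell by 0.45.

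The genes whose pattern over the 12 libraries was most like that of COL1A1 were EIF3L, SMYD3, NT5DC2, HBS1L and SNTB2, each with a Pearson's r of 0.98 on the log2 scale. Those most like COL4A1 were PAWR, FAM107B, GJA1, SLC8A1 and MYO1C, each at 0.99. These are descriptions over 9255 genes compared, and all libraries of a group share its treatment.

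Markers of other cell types were measured beside these genes. The summed level of the 6 epithelial markers, of which 4 had a mean of at least 10, was 2061 to 2542 in proliferating cells, 1802 to 2052 with DMSO and 3619 to 4236 with palbociclib. KRT18, a keratin, made up most of it and fell by 0.49 after irradiation, while KRT19 and KRT8 were called higher (1.39 and 0.27) and EPCAM was not called (limma). With palbociclib KRT18, KRT19 and KRT8 rose by 1.13, 0.64 and 0.59, and EPCAM was not called. CDH1 was at 0 in proliferating cells, 2.37 to 4.95 with DMSO and 9.85 to 18.8 with palbociclib, and SFTPC was at most 0.888. The 5 endothelial markers summed to 1681 to 1949 in proliferating cells, 2389 to 2554 with DMSO and 3501 to 4380 with palbociclib, nearly all of it TEK. TEK rose by 0.41 after irradiation and by 0.70 with palbociclib. VWF rose by 1.77 after irradiation and was not called with palbociclib. PECAM1, KDR and CDH5 had means under 10 and were not tested, and CDH5 was at most 2.71 in any library. The 5 leukocyte markers summed to 544 to 571 in proliferating cells, 1224 to 1306 with DMSO and 697 to 804 with palbociclib, and CD68 rose by 1.16 after irradiation and fell by 0.74 with palbociclib. The 7 cartilage and bone markers summed to 1687 to 1728, 1628 to 1786 and 1663 to 1799, which overlapped, and SOX9 made up most of that sum. Among them RUNX2 fell by 0.87 after irradiation and by a further 1.30 with palbociclib, COMP rose by 2.91 and by a further 1.30, and ALPL fell by 0.76 and rose by 0.44, all called by limma. The part of these markers in the collagen results was not tested.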

How the data were processed

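Poly(A) RNA sequencing of 12 IMR90 libraries was used, 3 per group. The authors deposited a table of normalized counts, a signal per Entrez gene, in which 100% of the 160380 values above 0 were whole multiples of the value of 1 read (tolerance 0.01), so whole reads were recovered. In A116 a read was worth 0.990, too near 1 for that column to show it alone. Per the submitters' processing notes, the tools were FastQC 0.74, MultiQC, Trimmomatic 0.38.1, HISAT2 2.2.1, featureCounts 2.0.3 and DESeq2 2.11.40.8, with hg38. Columns name a group but no replicate. The table ends at Entrez gene 140467, so 4 collagen genes with higher numbers were not analysed here.

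The model was limma 3.58.1 (R 4.3.3) on log2(normalized count + 1) over all 12 libraries with 4 group means, a variance trend and Benjamini-Hochberg adjustment over the 11242 genes with a mean of at least 10, with a call at an adjusted p under 0.05. Adjusted p-values in the text are from this fit unless edgeR or DESeq2 is named, and a bare value in brackets after a named limma adjusted p is also one. A fold change on this scale understates the change of low genes. Lengths and exon overlap came from GENCODE 44 and promoters from RefSeq. Alternatives were other pseudocounts, filters and scalings, each library left out, edgeR 4.0.16, DESeq2 1.42.0 and removal of GC and length trends. The tests were also run on simulated data in which few genes changed, as many up as down. The data here differ in that, so the simulation does not bear on the choice of scaling. All genes with a mean of at least 10 are named, by class, with the 5 genes most correlated with COL1A1 and with COL4A1. The members and the lists were chosen with earlier results of these data known.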

Additional observations from a re-analysis of the deposited data

How the results depend on the processing

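No paired analysis was possible because the columns carry no replicate numbers. Over 25 other settings, 3595 log2 fold changes of single collagen genes were recomputed: 3465 kept their call or lack of one, 45 lost a call, 75 gained one and 10 changed sign where at least one of the 2 values was called. Of the 3465, 69 changed sign with neither value called, in 19 genes. The 10 sign changes were COL1A2 after irradiation (0.13, quantile normalization), and with palbociclib against DMSO COL12A1 (0.17, without A120 and A126), COL16A1 (-0.0165, same total), COL6A3 (-0.27) and COL6A1 (-0.21, both quantile normalization). Against ruxolitinib, quantile normalization gave -0.11 for COL1A1, -0.34 for COL12A1, -0.24 for COL6A3, -0.33 for COL6A1 and -0.10 for COL6A2. The cause was not tested.

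Counts of called genes moved by over 1.5 times in these cases. Most are given without the share of all tested genes at that setting, so they describe the members only. After irradiation, 10 rose with no filter, where genes under a mean of 10 were tested too, and 3 with a mean of at least 50, where fewer were. With palbociclib, 2 fell at a mean of at least 50, and 9 at the same total and 9 with quantile normalization. With ruxolitinib, 9 rose and 1 fell when only the 2 groups were fitted. With GC and length trends removed 7 rose, where 698 of 11167 genes rose and 493 fell. Without A120 and A126, chosen after seeing the data, 8 rose. Leaving out each library gave, after irradiation, 5 to 6 higher and 20 lower. With palbociclib against DMSO it gave 15 to 18 higher and 4 to 7 lower, 7 without A119. With ruxolitinib it gave 3 to 5 higher and 0 lower, with palbociclib against ruxolitinib 12 to 16 higher and 5 to 6 lower, and with palbociclib against proliferating cells 4 higher and 16 to 19 lower. Scaling moved the median gene by 0.23 (same total), 0.15 (upper quartile) and 0.14 (quantile) after irradiation, by -0.20 for palbociclib against ruxolitinib at the same total, and by 0.12 for palbociclib against proliferating cells with quantile normalization.

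COL4A4, COL17A1 and COL25A1, with 4 to 35 reads per library, had standard errors of 0.32 to 0.47 on the log2 scale, and counting error was not separated from the spread between libraries there. Totals cover listed genes only, and 3 libraries a group limit every interval.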
